A study of Mus musculus with 6 samples.

Results

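The circadian clock genes described here are 10 genes picked by symbol from the 45777 genes of the deposited table: Arntl, Clock, Npas2, Per1, Per2, Per3, Cry1, Nr1d1, Nr1d2 and Dbp. All 10 were listed, and all 10 had reads in every sample. They were measured by RNA sequencing of astrocytes sorted from mouse brain, in 3 samples from vehicle-treated and 3 from streptozotocin (STZ)-treated mice. The mice carried Aldh1l1-cre/ERT2, a tamoxifen-inducible Cre driven by the astrocyte gene Aldh1l1, and a floxed red fluorescent tdTomato reporter on a C57BL/6 background, although the sample labels give the genotype as WT. Both groups received tamoxifen for 5 days. At 8 weeks of age, male mice then were injected once with STZ, which kills the beta cells of the pancreas, or with the citrate buffer alone (vehicle), and only STZ mice with high fasting blood glucose were kept. Brains were taken 21 days later and dissociated, tdTomato-positive cells were sorted, and each sample pooled the cells of 3 mice. Any cell that had used Aldh1l1 during tamoxifen could carry the reporter. The mice lived under 12 h of light and 12 h of dark. The hour at which the brains were taken is not given in the sources used here.

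The mammalian clock is a feedback loop of transcription. BMAL1, encoded by Arntl, pairs with CLOCK or with its close relative NPAS2 and switches on genes that carry E-box elements, among them the Per and Cry genes, Nr1d1, Nr1d2 and Dbp. PER and CRY proteins then hold the activators back, and the REV-ERB nuclear receptors encoded by Nr1d1 and Nr1d2 silence Arntl through ROR elements. In a running clock, Arntl and most of these E-box targets thus peak at nearly opposite times of day. Cry1 RNA peaks later than that of the Per genes. Astrocytes have a clock of their own. The comparison of STZ with vehicle samples therefore asked whether the activators and the E-box targets differed in opposite directions, as a shift of clock phase would give.

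The promoter sequences are shown first for 5 clock genes that held a searched element within the 250 bases before a transcription start, since these elements are what ties the arms of the loop together: Per1, Nr1d1, Cry1, Ciart and Per3. Ciart encodes a repressor of CLOCK and BMAL1 and belongs to the list of other clock genes described later. It was the only gene of that list whose windows were read for these elements. Sequences are from RefSeq (GRCm38.p6), written 5′ to 3′ on the strand of the gene, and capitals mark the matches. The starts used for Per1, Per3 and Ciart lie inside the annotated span of the gene. The stretches are chr11:69098699-69098948 on the plus strand for Per1, chr11:98775378-98775627 on the minus strand for Nr1d1, chr10:85185055-85185304 on the minus strand for Cry1, chr3:95882229-95882478 on the minus strand for Ciart and chr4:151044666-151044915 on the minus strand for Per3.
Per1: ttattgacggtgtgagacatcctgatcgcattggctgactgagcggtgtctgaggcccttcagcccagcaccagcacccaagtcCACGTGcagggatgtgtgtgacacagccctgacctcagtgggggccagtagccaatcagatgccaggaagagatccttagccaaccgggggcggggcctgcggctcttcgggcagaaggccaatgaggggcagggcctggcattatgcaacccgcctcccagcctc
Nr1d1: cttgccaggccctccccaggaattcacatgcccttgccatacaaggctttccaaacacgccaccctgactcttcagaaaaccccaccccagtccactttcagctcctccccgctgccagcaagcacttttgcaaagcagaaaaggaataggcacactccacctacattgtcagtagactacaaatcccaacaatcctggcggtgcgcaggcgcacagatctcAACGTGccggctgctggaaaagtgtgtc
Cry1: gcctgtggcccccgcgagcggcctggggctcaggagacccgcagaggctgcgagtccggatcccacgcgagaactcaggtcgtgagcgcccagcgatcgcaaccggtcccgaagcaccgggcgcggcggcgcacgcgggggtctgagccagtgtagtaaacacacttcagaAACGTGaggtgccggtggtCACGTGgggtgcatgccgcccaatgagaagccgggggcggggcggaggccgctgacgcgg
Ciart: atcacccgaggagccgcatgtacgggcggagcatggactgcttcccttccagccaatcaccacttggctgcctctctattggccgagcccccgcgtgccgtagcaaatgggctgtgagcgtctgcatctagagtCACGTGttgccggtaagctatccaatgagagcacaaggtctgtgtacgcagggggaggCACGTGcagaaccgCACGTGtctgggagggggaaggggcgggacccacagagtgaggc
Per3: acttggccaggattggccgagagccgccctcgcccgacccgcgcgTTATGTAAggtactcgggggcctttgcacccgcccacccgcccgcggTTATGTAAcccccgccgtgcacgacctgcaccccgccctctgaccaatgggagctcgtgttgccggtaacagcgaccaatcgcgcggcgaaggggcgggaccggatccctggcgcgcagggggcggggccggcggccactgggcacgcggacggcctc

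Both strands of each 300-base window, from 250 bases before to 50 bases after a start, were searched for the E-box CACGTG, the related element CACGTT, which stands in the printed strands as its reverse complement AACGTG, the D-box TTATGTAA or TTACGTAA bound by DBP, the ROR element in the form TAGGTCA and also in the form TGGGTCA, and the cyclic AMP response element TGACGTCA. Windows were given for 9 of the 10 genes, all but Per2. Per1 and Arntl had 2 windows each and Clock 3, whereas the shares below are per window. An E-box stood at -166 from the first of the 2 starts of Per1, and the window of the second held no match. Another stood at -60 from the start of Cry1, and 3 stood in front of Ciart, at -116, -58 and -44. Of all 32851 windows, 7.15% held an E-box. CACGTT stood at -28 in Nr1d1 and at -79 in Cry1, against 4.68% of all windows. The capitals in Per3 are 2 D-boxes, at -205 and -158, an element that 1.06% of all windows held. Arntl had a ROR element at 31 bases past the second of its 2 starts, against 6.45% of windows, and no window of the 9 genes held the cyclic AMP element, which 1.79% of all windows did. Clock, Npas2, Nr1d2 and Dbp had no match in their windows. A match is a description of letters and not a measured binding site.

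The sorted samples carried the astrocyte markers. In the FPKM values made by the authors, which divide read counts by transcript length and by the mapped reads of the sample, Aldh1l1 had a mean of 135 and Slc1a3 of 1361 over the 6 samples, against 0.177 for the neuronal marker Rbfox3. Total counts ranged from 52529048 to 58749115 per sample. The summed level of 8 endothelial markers was 42.8 to 153 CPM (counts scaled to a common library size) in vehicle and 158 to 298 CPM in STZ samples, and 7 of the 8 were higher at an unadjusted p under 0.05. The 8 pericyte and smooth muscle markers summed to 133 to 178 CPM in vehicle and 176 to 237 CPM in STZ samples, with 4 of the 8 higher at an unadjusted p under 0.05 and overlapping sums. The sums of 8 microglial and macrophage markers (356 to 534 and 343 to 533 CPM), of 8 neuronal markers (59.0 to 113 and 85.7 to 123 CPM, 7 of them tested), of 8 choroid plexus and ependymal markers (5779 to 17054.5 and 9265 to 15572 CPM) and of 8 astrocyte markers (20604 to 23628 and 20394 to 22603 CPM) overlapped between vehicle and STZ. The 8 oligodendrocyte lineage markers summed to 2319 and 2735 CPM in replicate 1 of vehicle and of STZ, and to 891 to 1039.6 CPM in the other samples. At an unadjusted p under 0.05 from edgeR, 2 of the 8 astrocyte markers were lower in STZ samples. So were 1 microglial and macrophage marker and 1 oligodendrocyte lineage marker, and no marker of these 3 lists was higher. Of all genes tested, 5.63% were higher and 5.65% lower. No marker list had a gene at 0 in all samples, and 1 neuronal marker, Slc17a7, was at 0 in a sample.

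Per unit of transcript length, the most abundant clock transcripts were the E-box targets Nr1d1 and Dbp. Nr1d1 had 99.5 FPKM ± 32.8 and Dbp, a transcription factor that carries the rhythm to output genes, had 85.7 FPKM ± 24.4 (SD, n = 6). A middle tier held Per3 at 20.2 FPKM ± 2.13, Arntl at 17.3 FPKM ± 1.84, Nr1d2 at 15.4 FPKM ± 2.47 and Cry1 at 14.9 FPKM ± 1.66 (SD, n = 6). Npas2 at 8.74 FPKM ± 1.10, Per2 at 5.60 FPKM ± 0.816, Clock at 2.67 FPKM ± 0.167 and Per1 at 2.47 FPKM ± 1.08 came last (SD, n = 6). In this order, the sample ranges of neighbours were apart between Dbp and Per3, between Cry1 and Npas2 and between Per2 and Clock. The other neighbours overlapped. BMAL1's alternative partners thus stood in the ratio of 3.14, 3.38 and 3.62 FPKM of Npas2 per FPKM of Clock in the vehicle samples, and 4.07, 3.05 and 2.51 in the STZ samples.

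**Figure D1:**
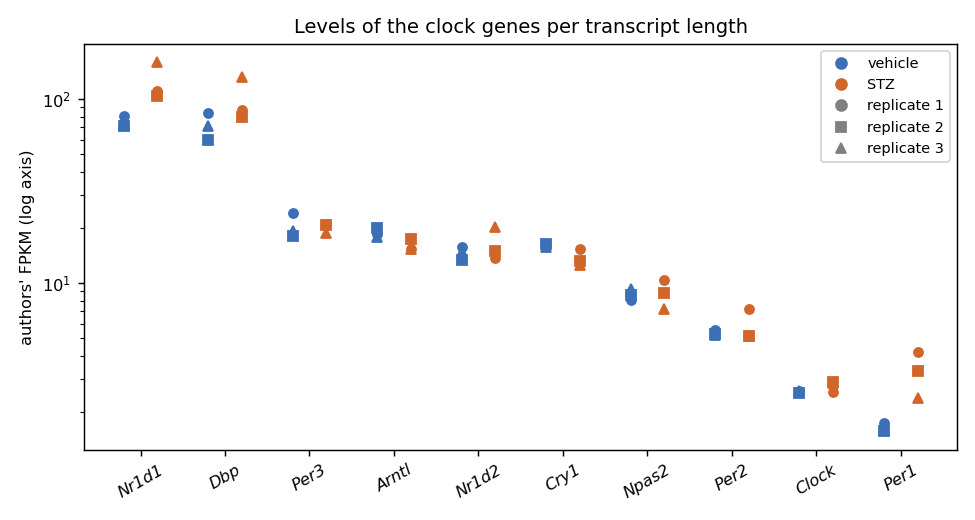
Authors' FPKM of the 10 clock genes (vertical log axis) in each of the 6 samples, vehicle in blue and STZ in orange, ordered by mean. Nr1d1 and Dbp lie between 60.1 and 158 FPKM in every sample, above the other 8 genes, and Per1 runs from 1.57 to 4.22 FPKM.

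On normalized CPM, which compares 1 gene between samples, the groups did not overlap for 5 of the 10 clock genes. Per1, Nr1d1 and Clock were higher in each of the 3 STZ samples than in every vehicle sample, and Arntl and Cry1 were lower. Among all 22337 genes tested, 8.64% were higher and 9.85% lower in this sense. With edgeR's quasi-likelihood test requiring an adjusted p below 0.05 together with more than 1.5-fold change, 0 of the 10 genes were called, against 0.0224% (5 genes) of all genes. At an unadjusted p under 0.05, Per1 and Nr1d1 were higher and Arntl and Cry1 lower, where all genes gave 5.63% higher and 5.65% lower. DESeq2, the study's tool, called 1 of the 10 at the same threshold (Nr1d1; 1.27% of the genes with an adjusted p) and 2 of the 10 without the fold limit (Nr1d1 and Per1; 2.08%). The median log2 fold change of the 10 genes was 0.07, beside 0.01 over all genes tested.

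**Figure D2:**
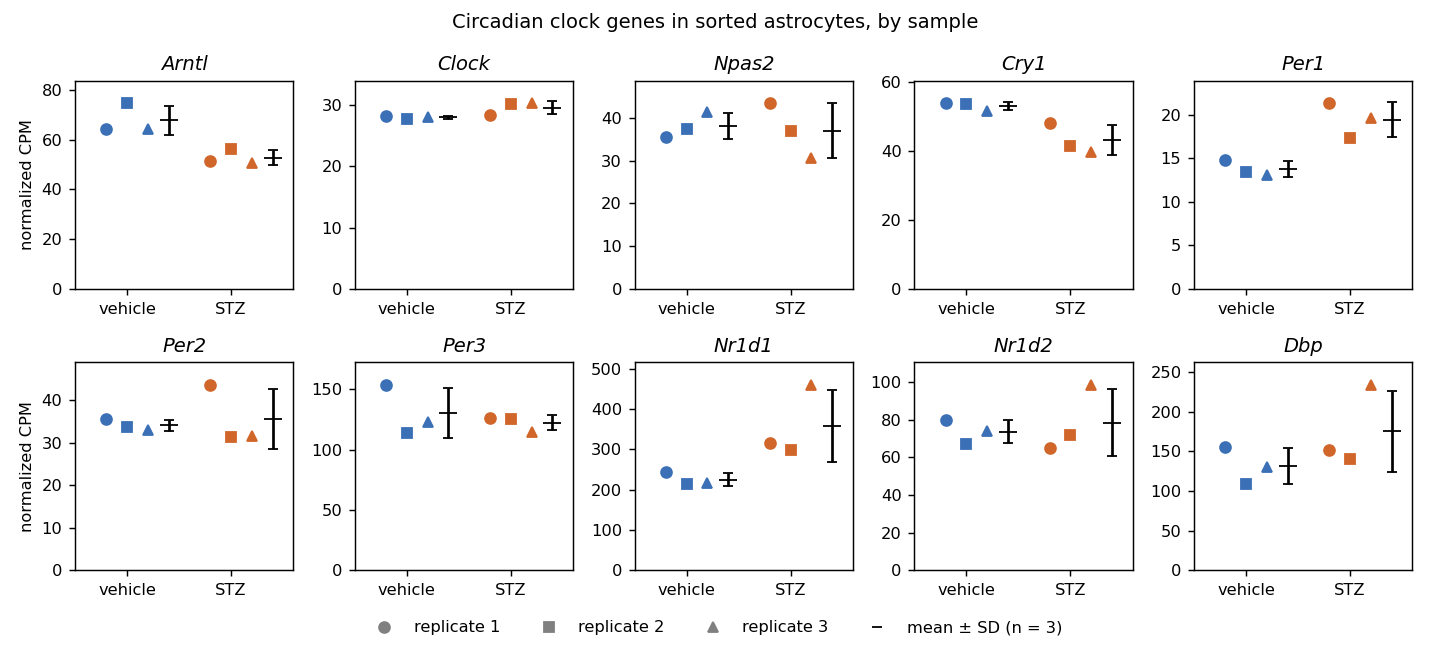
Normalized CPM (vertical axes from 0) of the 10 clock genes in the 3 vehicle (blue) and 3 STZ (orange) samples, with replicates as symbols and the mean ± SD (n = 3) as black bars. STZ samples lie below all vehicle samples for Arntl and Cry1 and above them for Per1 and Nr1d1; for Clock they lie above by a margin of 28.3 against 28.2 CPM.

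Of the activators, Arntl alone had an unadjusted p under 0.05. Arntl (NCBI gene 11865, chromosome 7, 113178471 to 113314126, plus strand) had 64.4, 74.6 and 64.2 normalized CPM in vehicle replicates 1, 2 and 3 and 51.5, 56.2 and 50.4 CPM in STZ replicates 1, 2 and 3. Every STZ sample was thus below every vehicle sample, the mean going from 67.7 ± 5.91 to 52.7 ± 3.11 CPM (SD, n = 3 per group). The log2 fold change of Arntl was -0.36 with a standard error (SE) of 0.0862. Its unadjusted p was 0.00345 and its adjusted p 0.271 from edgeR, and leaving out 1 sample at a time gave log2 fold changes from -0.41 to -0.30. DESeq2 gave an adjusted p of 0.0702, which was 0.0358 without vehicle replicate 1, 0.0429 without vehicle replicate 3 and 0.247 at most, without vehicle replicate 2. In these bulk samples, less Arntl RNA per cell and fewer cells that express it cannot be told apart. An antisense gene, Gm45355, which the deposited table does not list under that symbol, shares 33 of the 7523 exon bases of Arntl in the GENCODE vM21 annotation.

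Clock (NCBI gene 12753, chromosome 5, 76209868 to 76305603, minus strand) was the steadiest of the 10. It had 28.2, 27.7 and 28.1 CPM in the vehicle samples and 28.3, 30.1 and 30.3 CPM in the STZ samples, a log2 fold change of 0.08 (SE 0.0733, adjusted p = 0.718 from edgeR). Although its groups did not overlap, the lowest STZ sample exceeded the highest vehicle sample by less than the vehicle SD of 0.268 CPM. Npas2 (NCBI gene 18143, chromosome 1, 39193702 to 39363240, plus strand) had 35.6, 37.4 and 41.5 CPM with vehicle and 43.4, 37.0 and 30.7 CPM with STZ, so that STZ held both its highest and its lowest sample. Its log2 fold change of -0.04 (SE 0.132) turned to 0.08 without STZ replicate 3 and to 0.0065 without vehicle replicate 3.

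The repressors of the loop did not all lean the same way. Cry1 (NCBI gene 12952, chromosome 10, 85131700 to 85185054, minus strand), a repressor of CLOCK and BMAL1 whose RNA in a running clock peaks later than that of the Per genes, had 53.8, 53.6 and 51.5 CPM with vehicle and 48.0, 41.5 and 39.7 CPM with STZ. All 3 STZ samples were below the vehicle samples, which lay close together. The log2 fold change of Cry1 was -0.30 (SE 0.0869), with an unadjusted p of 0.00979 and an adjusted p of 0.313 from edgeR and of 0.185 from DESeq2. With samples left out it ranged from -0.38 to -0.24, and DESeq2's adjusted p ran from 0.0172 without STZ replicate 1 to 0.515 without STZ replicate 2. Its relative Cry2, named for its role and after its values were seen, had 227, 188 and 192 CPM with vehicle and 208, 213 and 219 CPM with STZ, and the groups overlapped. The log2 ratio of Cry2 to Cry1 went from 1.93 ± 0.136 in vehicle to 2.31 ± 0.180 in STZ samples (SD, n = 3).

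Per1 (NCBI gene 18626, chromosome 11, 69095108 to 69109965, plus strand) was the 1 Per gene whose groups did not overlap. It had 14.8, 13.4 and 13.1 CPM in the vehicle samples and 21.3, 17.3 and 19.6 CPM in the STZ samples. From 13.8 ± 0.921 CPM in vehicle to 19.4 ± 2.01 CPM in STZ samples (SD, n = 3), Per1 changed by 0.50 on the log2 scale (SE 0.117). The unadjusted p was 0.00324. The adjusted p was 0.261 from edgeR and 0.0338 from DESeq2, and DESeq2's value ran from 0.00856 without vehicle replicate 1 to 0.179 without STZ replicate 1. With samples left out the log2 fold change stayed between 0.42 and 0.57. Its size depended on the unit. In the authors' FPKM, Per1 was 1.75, 1.57 and 1.61 with vehicle and 4.22, 3.33 and 2.38 with STZ, so the ratio of the means was 2.02 against 1.41 in CPM. The count of Per1 in CPM per FPKM was 8.30, 8.45 and 7.96 in the vehicle samples, 8.31 in STZ replicate 3, and 5.22 and 5.29 in STZ replicates 1 and 2. That quotient, which follows the transcript length the authors' software assigned, changed between the group means by the factor 0.762 for Per1 and by 0.950 to 1.01 for the other 9 clock genes. The table lists 5 transcripts for Per1 and gives no values for each.

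The groups of Per2 and of Per3 overlapped. Per2 (NCBI gene 18627, chromosome 1, 91415977 to 91459351, minus strand) had 35.5, 33.7 and 33.1 CPM with vehicle and 43.7, 31.3 and 31.7 CPM with STZ. STZ replicate 1 was the highest and the other 2 STZ samples were the lowest of the 6, and without it the log2 fold change went from 0.06 to -0.11. Replicate 1 of each group, the highest in Per2, was also the sample with the high oligodendrocyte marker sum given above. Per3 (NCBI gene 18628, chromosome 4, 150997018 to 151044707, minus strand) had 154, 114 and 123 CPM with vehicle and 126, 125 and 115 CPM with STZ, a log2 fold change of -0.09 (SE 0.116) that turned to 0.04 without vehicle replicate 1. On the log2 scale the ratio of Per3 to Per1 went from 3.23 ± 0.142 in vehicle to 2.65 ± 0.175 in STZ samples (SD, n = 3), with every STZ sample below every vehicle sample. The groups of Per1 alone did not overlap, so this separation is a description.

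Nr1d1 (NCBI gene 217166, chromosome 11, 98767932 to 98775377, minus strand), which encodes REV-ERB alpha, had the largest log2 fold change among the 10 genes on the counts of all 6 samples. In FPKM the ratio of the group means was 1.65 for Nr1d1 and 2.02 for Per1, and without STZ replicate 3 the log2 fold change on counts was 0.44 for Nr1d1 and 0.49 for Per1. It had 244, 214 and 218 CPM in vehicle replicates 1, 2 and 3 and 315, 298 and 460.4 CPM in the STZ replicates. STZ replicate 3 was far above the other 2 STZ samples, and these were above every vehicle sample. From 225 ± 16.6 CPM to 358 ± 89.3 CPM (SD, n = 3 per group), the log2 fold change was 0.67 (SE 0.166), with an unadjusted p of 0.00430 and an adjusted p of 0.282 from edgeR and 0.0114 from DESeq2. Without STZ replicate 3 the log2 fold change was 0.44 and DESeq2's adjusted p 0.00677, below the fold limit. Without vehicle replicate 2 or 3, DESeq2's adjusted p was 0.145 or 0.0654. Nr1d1 shares 263 of its 3077 exon bases with Thra, a thyroid hormone receptor gene, on the opposite strand, and no source used here says whether counting was by strand. Thra had 55.0, 52.8 and 49.9 CPM with vehicle and 73.3, 57.2 and 57.6 CPM with STZ, and the log2 fold change of both genes' summed counts was 0.60.

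Nr1d2 (NCBI gene 353187, chromosome 14, 18204056 to 18239106, minus strand), which encodes REV-ERB beta, differed less. It had 79.6, 67.3 and 73.7 CPM with vehicle and 65.1, 71.7 and 98.4 CPM with STZ. STZ held its lowest and its highest sample, and the log2 fold change of 0.09 (SE 0.154) turned to -0.10 without STZ replicate 3. The log2 ratio of Nr1d1 to Nr1d2 was 1.62, 1.67 and 1.56 in the vehicle samples and 2.27, 2.05 and 2.23 in the STZ samples, so within the pair every STZ sample lay above every vehicle sample. Nr1d1 alone also separated the groups, so the ratio is a description.

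Dbp (NCBI gene 13170, chromosome 7, 45705100 to 45710203, plus strand) had 155, 109 and 130.4 CPM with vehicle and 151, 140.4 and 234 CPM with STZ. Only STZ replicate 3 was above vehicle replicate 1. The log2 fold change of 0.41 (SE 0.209) had an adjusted p of 0.502 from edgeR and 0.385 from DESeq2, and it was 0.15 without STZ replicate 3 and 0.55 without STZ replicate 2. Dbp shares 539 of its 2993 exon bases with Sphk2 on the opposite strand, whose 33.0 to 39.6 CPM overlapped between the groups. Summing the counts of both genes gave a log2 fold change of 0.33.

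Taken as arms without Cry1, the mean of the activators was lower and that of the other E-box targets higher in STZ samples, but the groups overlapped in the output arm and in the difference between the arms. Cry1, an E-box target with a delayed peak, was lower in STZ samples along with Arntl, so the split did not hold for every E-box target. The activator arm was taken as the mean log2 CPM of Arntl, Clock and Npas2, and the repressor and output arm as that of Per1, Per2, Per3, Nr1d1, Nr1d2 and Dbp. Cry1 was kept out of both arms because its peak is delayed against that of the Per genes. The activator arm was 5.33, 5.41 and 5.40 in the vehicle samples and 5.32, 5.31 and 5.17 in the STZ samples, a difference of -0.11. Its groups did not overlap, although vehicle replicate 1 and STZ replicate 1 nearly met, and within it Arntl alone had an unadjusted p under 0.05. The output arm was 6.31, 6.04 and 6.12 with vehicle and 6.40, 6.26 and 6.58 with STZ, a difference of 0.26 with overlapping groups. Output minus activator arm averaged 0.774 ± 0.182 in vehicle and 1.15 ± 0.234 in STZ samples (SD, n = 3), so that STZ exceeded vehicle by 0.37. It was 0.98, 0.63 and 0.72 in the vehicle samples and 1.08, 0.95 and 1.41 in the STZ samples, and vehicle replicate 1 lay above STZ replicate 2. With Cry1 counted in the output arm, a choice made after seeing the data, the output arm differed by 0.18 and the difference between the arms by 0.29, with overlapping groups in both. With Cry1 counted among the activators the latter was 0.42. The score was given no test because its genes were chosen with results of these data known. Each sample gives levels and not a phase, and whether all brains were taken at the same hour is not given. A shift in phase and a difference in collection time thus cannot be told apart.

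**Figure D3:**
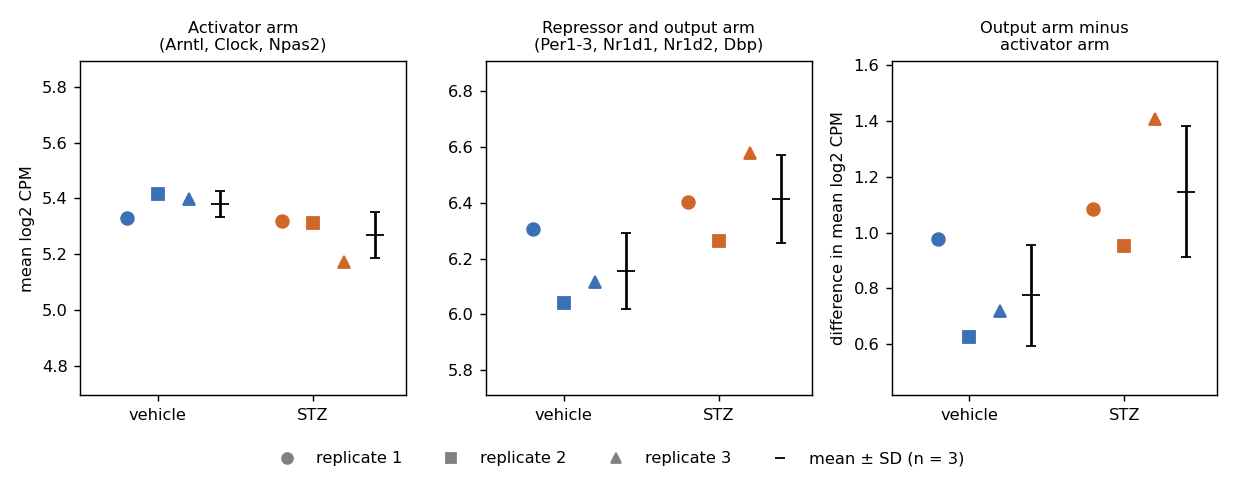
Mean log2 CPM of the activator arm (left), of the repressor and output arm (middle) and their difference (right) in each sample, Cry1 being in neither arm, with the mean ± SD (n = 3) in black. The 3 panels span equal lengths of the log2 scale and do not start at 0; the difference is 0.774 with vehicle and 1.15 with STZ, and the groups overlap in the middle and right panels.

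For some single pairs of genes the groups did not overlap. The log2 ratio of Nr1d1 to Arntl, a repressor over the gene it represses, was 1.92, 1.52 and 1.76 in the vehicle samples and 2.61, 2.41 and 3.19 in the STZ samples. That of Per1 to Cry1 was -1.86, -2.00 and -1.97 with vehicle and -1.17, -1.26 and -1.01 with STZ. These pairs were put together from genes already seen to differ, so the separation is a description.

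The samples within a group also differed along the clock genes. Among the vehicle samples, replicate 1 was the highest for 8 of the 10 genes and for all 6 genes of the output arm. The margin was small for Clock (28.2 against 28.1 CPM) and Cry1 (53.8 against 53.6 CPM). Vehicle replicate 1 was also the highest of its group for 18 of the 30 other clock genes described below. The share over all genes was not computed. Among the STZ samples, replicate 3 was the highest for Nr1d1, Nr1d2, Dbp and Clock and the lowest for Arntl, Npas2, Cry1 and Per3, while replicate 1 was the highest for Per1, Per2, Per3, Npas2 and Cry1. STZ replicate 3 also had the lowest endothelial marker sum of its group, 158 CPM against 224 and 298 CPM, and the part of these cells in the clock gene values was not tested. The range of Dbp over the 3 STZ samples was 0.73 on the log2 scale, larger than its difference between the groups, and that of Nr1d1 was 0.63 beside a group difference of 0.67.

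**Figure D4:**
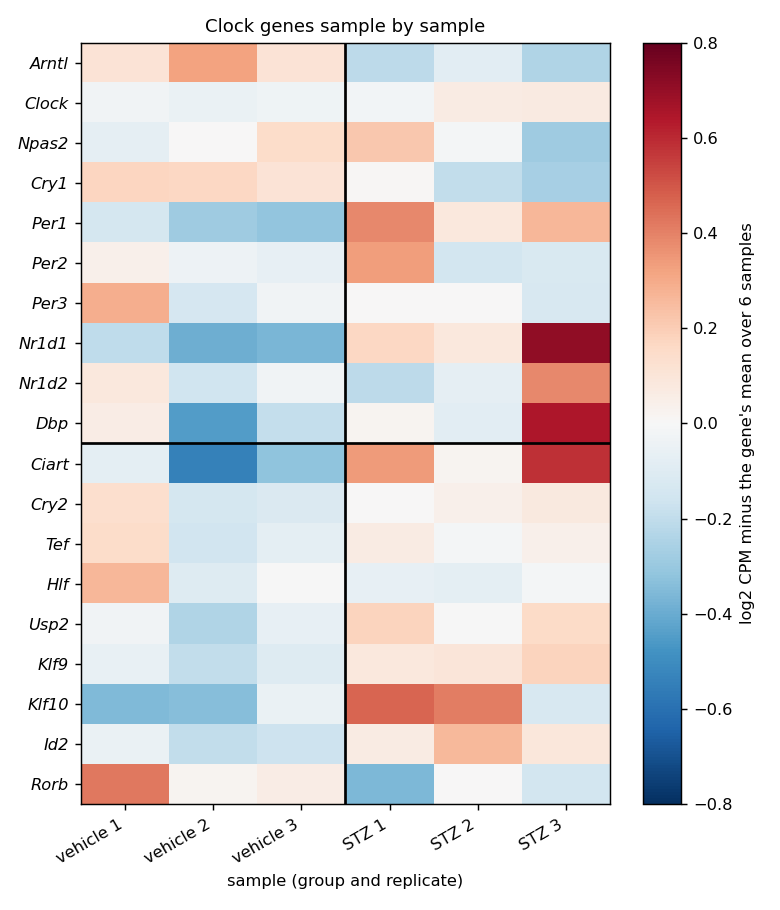
Log2 CPM minus each gene's mean over the 6 samples (colour) for the 10 clock genes, above the line, and 9 other clock genes, below it; columns are samples. Nr1d1, Dbp and Ciart are reddest in STZ replicate 3, and vehicle replicate 1 stands above the other vehicle samples in every row of the output arm.

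A list of 30 other clock genes (further repressors, ROR receptors, output factors, kinases and ubiquitin ligases) was read from the same fit. With edgeR, 0 of the 30 were called, and 5 were higher (Ciart, Klf10, Id2, Klf9 and Usp2) and 1 lower (Rorb) at an unadjusted p under 0.05, beside 5.63% higher and 5.65% lower of all genes tested. Their median log2 fold change was -0.02, beside 0.01 over all genes, and 14 of the 30 were above 0. Ciart, the repressor with 3 E-boxes in the window shown above, had 20.7, 15.0 and 17.5 CPM with vehicle and 27.7, 22.3 and 32.9 CPM with STZ. The promoters of the other genes in this list were not read, so whether they held E-boxes is not known here. Every STZ sample of Ciart was above every vehicle sample, with a log2 fold change of 0.64 (SE 0.172) and an adjusted p of 0.301 from edgeR and 0.0364 from DESeq2, which called it as the 1 gene of the list, beside 1.27% of all genes. DESeq2's adjusted p for Ciart ranged from 0.00607 to 0.276 with samples left out. Usp2, a deubiquitinase under clock control, had log2 fold change 0.22 (SE 0.0867), and Klf9, a transcription factor that also responds to glucocorticoids, 0.24 (SE 0.0711). Id2, an inhibitor of helix-loop-helix factors, had 0.28 (SE 0.0910) and the transcription factor Klf10 0.51 (SE 0.191). Rorb, which encodes a receptor that binds ROR elements, had 164, 124 and 127 CPM with vehicle and 95.2, 123 and 110.5 CPM with STZ, a log2 fold change of -0.34 (SE 0.135). The adjusted p of these 5 genes from edgeR lay between 0.322 and 0.413. Without vehicle replicate 1 the log2 fold change of Rorb was -0.21, and without vehicle replicate 2 that of Usp2 was 0.15. Each of these 5 had an unadjusted p over 0.05 without at least 1 of the samples, whereas that of Ciart was 0.0277 at most.

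**Figure D5:**
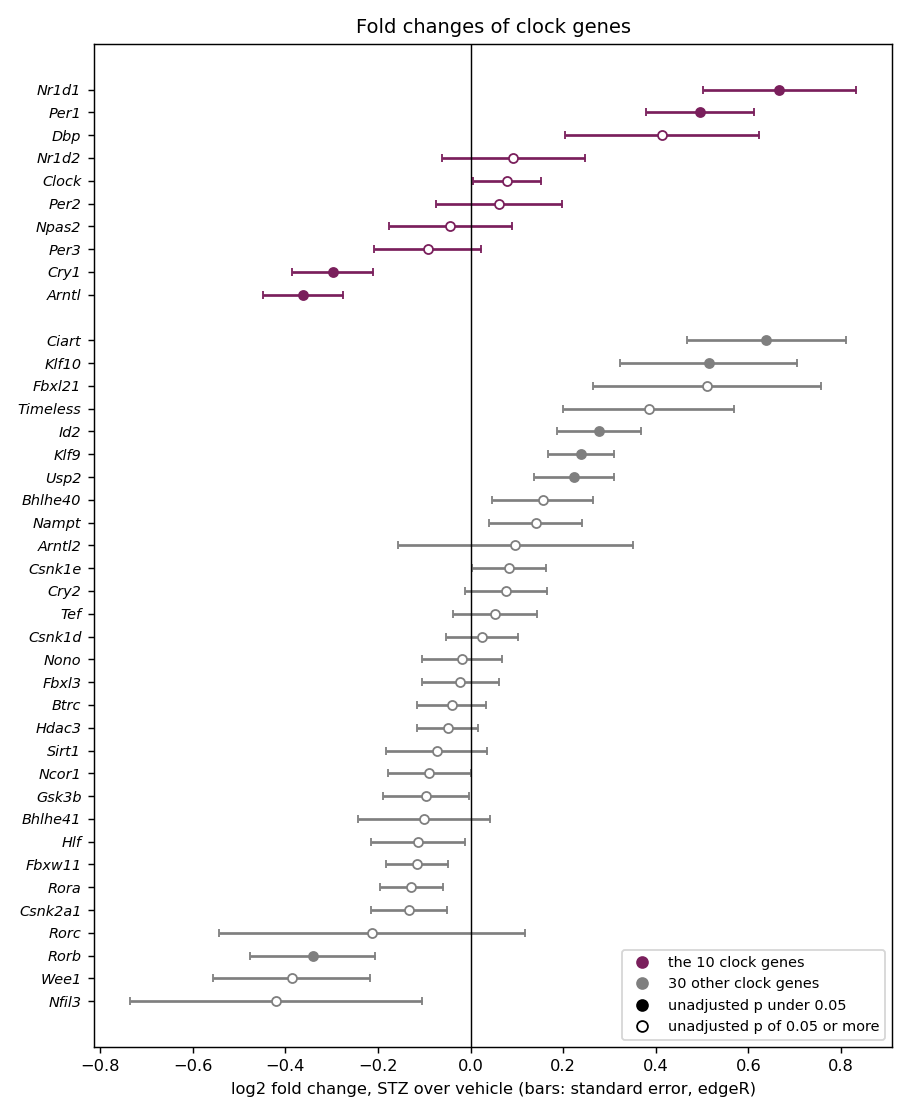
Log2 fold change of STZ over vehicle with its standard error from edgeR for the 10 clock genes (purple) and 30 other clock genes (grey); filled points have an unadjusted p under 0.05. Nr1d1 at 0.67 and Ciart at 0.64 lie farthest to the right, and Arntl at -0.36 is the lowest of the 10.

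Per1 and Klf9 can also be switched on by the glucocorticoid receptor, and Per1 by CREB. In a list of 18 other genes induced by these factors, edgeR called 0, and 6 were higher and 0 lower at an unadjusted p under 0.05 (Fkbp5, Cdkn1a, Dusp1, Junb, Fos and Errfi1), beside 5.63% higher and 5.65% lower of all genes tested. DESeq2 called 3 of the 18 (Fkbp5, Cdkn1a and Dusp1), beside 1.27% of all genes. The median log2 fold change of this list was 0.27, beside 0.01 over all genes. Of the 18, 14 were above 0, beside 51.9% of all genes tested. The 4 below 0 were Pdk4 (-0.21, SE 0.0929), Nr4a2 (-0.19), Egr1 (-0.16) and Crem (-0.0016). Every STZ sample of Pdk4 was below every vehicle sample, with an unadjusted p of 0.0584 from edgeR. Fkbp5, a feedback inhibitor of the receptor, had 4.25, 4.47 and 6.37 CPM with vehicle and 26.1, 19.7 and 10.8 CPM with STZ, a log2 fold change of 1.91 (SE 0.327). Fkbp5 was thus lowest in the STZ sample in which Nr1d1 was highest, and it ranked the 6 samples in the same order as the endothelial marker sum did. Cdkn1a, a cell cycle inhibitor, had a log2 fold change of 0.90 (SE 0.215), and the phosphatase gene Dusp1 had 0.79 (SE 0.205). The immediate early genes Junb and Fos had 0.65 (SE 0.255) and 0.58 (SE 0.217), with overlapping groups. Junb, Fos and Errfi1 had an unadjusted p over 0.05 without at least 1 of the samples. The part of these signals in the values of Per1 was not tested.

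The genes whose pattern over the 6 samples lay nearest to the difference between the arms were Errfi1, Rhno1, Gm42067, Ankra2 and Sall1, out of 10388 genes with a mean of at least 10 CPM. Likeness was the mean absolute difference between centred log2 values, which was 0.0628 for Errfi1 and 0.0746 for Sall1. Errfi1, an inhibitor of the EGF receptor, had 15.1, 13.6 and 14.5 CPM with vehicle and 17.2, 16.3 and 21.5 CPM with STZ, with vehicle replicate 1 the highest of its group and STZ replicate 3 the highest of all. Without STZ replicate 3 its log2 fold change went from 0.35 to 0.22. Of the other clock genes named above, Usp2, Klf9, Ciart, Id2 and Cry2 held ranks 35, 94, 106, 555 and 586 in this order. Klf10 and Rorb held ranks 8667 and 9355. Bhlhe40 and Tef, of the same list but with an unadjusted p over 0.05 from edgeR, held ranks 33 and 456. The 5 nearest genes had log2 fold changes from 0.23 to 0.36 and adjusted p-values of at least 0.401 from edgeR.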

How the data were processed

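RNA was measured in 6 samples of sorted astrocytes, 3 per group. The authors trimmed reads with Trimmomatic 0.38, aligned them to mm10 with HISAT2 2.1.0 and assembled transcripts with StringTie 2.1.3b. For each gene and sample the authors deposited the count, FPKM and TPM. Whether counting used strand is not given in the sources used here. The members and gene lists were chosen with earlier results of these data known.

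Groups came from the sample titles. Genes without a 0 in any sample (22337) were kept, and their deposited counts were tested with edgeR 4.0.16 (R 4.3.3; TMM, quasi-likelihood test, two-sided, group only), with Benjamini-Hochberg adjustment over all genes tested. A gene was called if its adjusted p was below 0.05 and it changed more than 1.5-fold. The p-values measure the spread between pools of mice. Log2 CPM used a prior count of 2. DESeq2 1.42.0, the study's tool, and limma 3.58.1 on the authors' TPM (log2 with 1 or 0.1 added) were alternatives. Total counts were 52529048 to 58749115 per sample. Overlapping exons came from GENCODE vM21. The genes named were the 10 clock genes and genes of the other lists with an unadjusted p under 0.05. The 5 nearest in pattern to the arm difference were also named. Cry2, Bhlhe40, Tef, Pdk4, Nr4a2, Egr1, Crem and the overlapping genes were named outside this rule. The edgeR and DESeq2 steps were tested on simulated data.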

Additional observations from a re-analysis of the deposited data

How the results depend on the processing

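The difference between the arms, 0.37 with Cry1 in neither arm, stayed positive under every alternative run. It ran from 0.24 without STZ replicate 3 to 0.47 without vehicle replicate 1. With Cry1 in the output arm, a choice made after seeing the data, it was 0.29 on all samples. Of the 10 clock genes, 4 had an unadjusted p under 0.05 with edgeR, and 4 or 5 did under the other settings. When single samples were left out, Npas2 had log2 fold changes from -0.17 without STZ replicate 1 to 0.075 without STZ replicate 3, turning positive also without vehicle replicate 3 (0.0065). The log2 fold change of Per2 ran from -0.11 without STZ replicate 1 to 0.15 without STZ replicate 2. The log2 fold change of Per3 ran from -0.19 without vehicle replicate 2 to 0.040 without vehicle replicate 1, and the log2 fold change of Nr1d2 from -0.10 without STZ replicate 3 to 0.21 without STZ replicate 1. Over all genes, edgeR called 5, DESeq2 called 234, limma with either pseudocount called 0, and edgeR with a sample left out called 0 to 1. Among the clock genes these counts were 0 with edgeR and 1 with DESeq2. In alternatives chosen after seeing the data, DESeq2 called 2 without the fold limit and 0 to 1 with a sample left out. Among the 30 other clock genes DESeq2 called 1 where edgeR called 0, and the 6 with an unadjusted p under 0.05 became 3 to 8 with a sample left out (3 without STZ replicate 1 or without vehicle replicate 2). Same-numbered samples were not treated as pairs, since over all genes tested their deviations from the group means correlated at -0.101, -0.162 and -0.184, although replicate 1 of both groups had the high oligodendrocyte marker sum. With the replicate block, edgeR called 0 of all genes and 0 clock genes, 4 clock genes and 3 other clock genes had an unadjusted p under 0.05, and DESeq2 with the block, also added after seeing the data, called 1 clock gene. The cause of these changes was not tested. A level of 3 counts corresponded to at most 0.0571 CPM, and the lowest value of any of the 10 clock genes was 13.1 CPM, in Per1.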
